A study of Mus musculus with 65 samples.

Results

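The regions described here are 752 meiotic break hotspots on mouse chromosomes 1 to 19. They were selected on MEI4 peak positions: each overlapped a peak of mice that lack SPO11, and none overlapped a MEI4 peak of mice that lack HORMAD1 or of the wild type. They are called Spo11KO-only hotspots below, a name that refers to these 3 MEI4 lists and to nothing else. They were taken from the 13314 autosomal hotspots of the wild-type DMC1 list (13808 with the sex chromosomes) by an overlap of at least 1 bp. The MEI4 lists of Spo11KO, Hormad1KO and the wild type touched 27.8%, 27.1% and 11% of all autosomal hotspots, and because they chose the members they are given as a description with no test. The same 3 lists defined the sets used for comparison, which were 665 Hormad1KO-only hotspots, 1571 hotspots with MEI4 in both knockouts but not the wild type, and 8861 hotspots with MEI4 in none of the 3 lists.

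The series comprised 65 chromatin immunoprecipitation samples in 36 groups, each an antibody in a genotype, from whole testes of mice on a C57BL/6JCrl background. All mice, controls included, had been synchronised: pups aged 1.5 days were fed WIN 18,466, which blocks retinoic acid synthesis, for 7 to 10 days and then injected once with retinoic acid. Testes were collected at 8 days post-injection, with 80 to 95% of cells in leptotene or zygotene, and fixed in 4% formaldehyde for 15 min. One deposited peak list was analysed for each of 24 groups, so no difference between lists has a replicate check and the sequencing depth behind each list is unknown. Besides the wild type, the genotypes were Prdm9KO (B6;129P2-Prdm9tm1Ymat/J), Spo11KO (Spo11tm1Mjn), Mei4KO (Mei4tm1Bdm), Iho1KO (Iho1tm1.2Atot) and Hormad1KO (Hormad1tm1.2Atot). SYCP3 had 1 sample in each of Iho1KO, Spo11KO and Prdm9KO and the other groups with a list had 2. Whole testes also hold somatic cells and spermatogonia, and the lists do not separate cell types.

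Meiotic recombination begins with DNA double-strand breaks made by SPO11 at sites that the DNA-binding methyltransferase PRDM9 marks. MEI4 and IHO1 are partner proteins that SPO11 needs to cut, HORMAD1 and SYCP3 belong to the chromosome axis from which the broken DNA extends, and HORMAD1 helps to recruit IHO1 to unsynapsed axes. DMC1 is the meiotic recombinase that assembles on single-stranded DNA once a break is processed, so a DMC1 list reports where breaks formed, whereas a MEI4 list reports where part of the break machinery was crosslinked.

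The DNA under the middle of a member can be shown where it falls in a RefSeq promoter window (GRCm38.p6, 250 bases before to 50 after a gene's start). Of the 752 members, 12 overlapped such a window, of 12 genes, and in 3 of them the hotspot's centre lay inside the window. These 3 are shown because their letters are those at the centre of a Spo11KO-only hotspot. Each line gives the 250 bases before the start, on the gene's strand, with CG dinucleotides (the sites of DNA methylation) in capitals.
Gpld1, chr13:24942902-24943151, plus strand: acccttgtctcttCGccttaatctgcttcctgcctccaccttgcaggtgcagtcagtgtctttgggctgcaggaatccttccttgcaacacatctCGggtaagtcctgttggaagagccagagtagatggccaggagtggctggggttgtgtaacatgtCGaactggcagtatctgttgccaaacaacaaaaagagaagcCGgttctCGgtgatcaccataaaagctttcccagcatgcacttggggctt
Gm33006, chr17:79667883-79668132, minus strand: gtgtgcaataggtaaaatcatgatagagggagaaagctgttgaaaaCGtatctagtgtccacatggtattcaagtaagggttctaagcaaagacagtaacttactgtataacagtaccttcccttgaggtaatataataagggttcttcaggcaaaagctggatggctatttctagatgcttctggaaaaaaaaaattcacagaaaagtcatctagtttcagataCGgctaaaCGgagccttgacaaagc
Fyco1, chr9:123851900-123852149, minus strand: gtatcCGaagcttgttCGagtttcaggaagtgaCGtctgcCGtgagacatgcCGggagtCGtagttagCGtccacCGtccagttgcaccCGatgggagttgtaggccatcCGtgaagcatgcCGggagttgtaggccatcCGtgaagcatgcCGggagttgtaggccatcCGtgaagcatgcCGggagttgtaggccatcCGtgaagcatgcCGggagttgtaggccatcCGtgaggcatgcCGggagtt

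The 3 windows differed in CG content. The Gpld1 window (a phospholipase that cleaves GPI anchors) held 5 CG dinucleotides, that of the long noncoding gene Gm33006 held 3, and that of Fyco1 (an adaptor that moves autophagic vesicles along microtubules) held 19. All 31396 autosomal windows had a median of 6.00 (interquartile range 2.00 to 16.0), and the 17 windows at members, some genes having more than 1, a median of 3. The Fyco1 letters are a tandem repeat: moved along itself by 30 bases, the sequence matched at 66.8% of positions, where the best shift matched 31.9% in Gpld1 and 33.8% in Gm33006. The 3 hotspots also differed in their data. The Gpld1 hotspot had a DMC1 value of 386.5 in the wild type and 42.5 in Hormad1KO and lay in none of the protein lists that the rule did not use. The Gm33006 hotspot had 544.5 in the wild type, was absent from the Hormad1KO DMC1 list, and also lay in none. The Fyco1 hotspot, 103.5 in the wild type and 33.0 in Hormad1KO, lay in 8 of the 18 lists.

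Spo11KO-only hotspots were of middle to high strength in the wild-type DMC1 list. Their DMC1 value (the authors' value per hotspot, in a unit they did not name) had a median of 386.25, an interquartile range of 229 to 671 and extremes of 37.5 and 11343.5. This median stood at the 73.4th percentile of all autosomal hotspots, whose median was 128.0. It lay between those of the Hormad1KO-only hotspots (223.5) and of the hotspots with MEI4 in both knockouts (644.0). Hotspots with MEI4 in the wild type had a median of 1500.5, and those with MEI4 in none of the 3 lists 73.0. When all autosomal hotspots were ranked into 4 equal classes, 342 members (45.5%) fell in the strongest class, 351 (46.7%) in the next, 56 (7.45%) in the third and 3 (0.399%) in the weakest. Members were thus nearly all in the stronger part of the list, while the interquartile ranges of the 3 sets with a MEI4 peak in a knockout overlapped. Hotspot width set the members little apart, with a median of 1903 bp against 1940 bp over all autosomal hotspots.

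**Figure D1:**
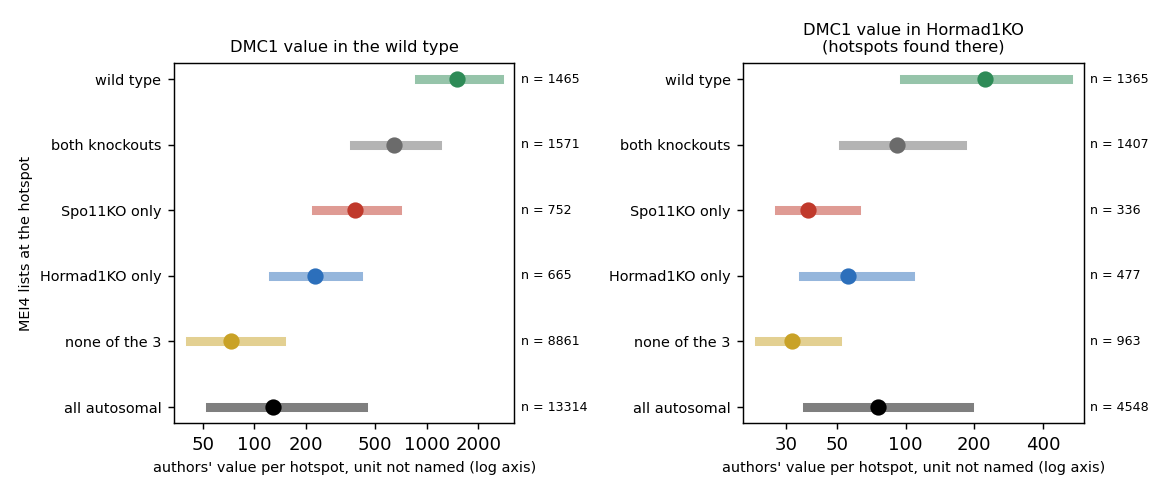
Authors' DMC1 value per hotspot on log axes, in the wild type (left) and, for hotspots also found there, in Hormad1KO (right), by the MEI4 lists at the hotspot; points are medians, bars interquartile ranges, and n the number of hotspots. In the wild type Spo11KO-only hotspots (median 386.25) stood above Hormad1KO-only hotspots (223.5), whereas in Hormad1KO they stood below them (37.5 against 56.0).

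The edges of the rule were as follows. A Spo11KO MEI4 peak covered a median of 74.2% of a member's length (interquartile range 63.1 to 85.0), and the smallest overlap, at chr10:26934796-26936835, was 552 bp. The nearest MEI4 peak of Hormad1KO lay a median of 306 kb away, and that of the wild type 651 kb away. In 2 members it was under 1 kb for Hormad1KO, and in 0 for the wild type. The closest member to a Hormad1KO peak, chr11:80477177-80479290 over Cdk5r1 (an activator of the kinase CDK5), was 724 bp from it, and the closest to a wild-type peak, chr2:114124072-114126112 in Aqr (a spliceosomal helicase), was 4166 bp from a Hormad1KO peak and 4209 bp from a wild-type peak. Just outside the rule, chr12:29336004-29337874 missed a Spo11KO peak by 975 bp, chr4:27259765-27261699 overlapped a Hormad1KO peak by 511 bp, and chr4:121039704-121041994 overlapped a wild-type peak by 870 bp. The Spo11KO MEI4 peaks at members had a median width of 1416.5 bp, against 1589 bp at hotspots with MEI4 in both knockouts and 1929 bp at hotspots with MEI4 in the wild type. None of these 752 peaks (0) also touched a hotspot of another set. The protein lists give no peak height, so a peak just under the authors' threshold in Hormad1KO and no MEI4 at all cannot be told apart.

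Fewer than 1 in 2 members had a DMC1 hotspot when HORMAD1 was missing. Of the 752 members, 336 (44.7%, Wilson 95% interval 41.2 to 48.3) were in the Hormad1KO DMC1 list, which held 34.2% of all autosomal hotspots. The share was 71.7% for Hormad1KO-only hotspots, a difference of -27.0 percentage points (Newcombe 95% interval -31.9 to -22.0). It was 89.6% for hotspots with MEI4 in both knockouts, a difference of -44.9 points (-48.7 to -41.0). The members' share was the lower on 19 of 19 autosomes in both comparisons. Compared within 10 Mb windows of the chromosomes, the first difference was -11.6 points (-18.7 to -4.57). A difference is called here where its interval excludes 0, which is a statement on counting error only, because each group has 1 list and hotspots are neither replicates nor, given their regional clustering described below, independent.

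Within classes of wild-type strength the order of these sets stayed the same, except in the weakest class, which held 3 members. The distance to hotspots with no MEI4 peak, in contrast, became smaller. In the strongest class, 61.4% of members were found in the Hormad1KO DMC1 list, against 91.4% of Hormad1KO-only hotspots and 94.6% of those with MEI4 in both knockouts. In the next class the shares were 32.8%, 71.0% and 80.0%, and in the third 16.1%, 58.6% and 60.5%. All autosomal hotspots together had 87.0%, 36.0% and 11.3% in these classes. The members lay below that share in the strongest class and the next, and above it in the third. Hotspots with MEI4 in none of the 3 lists had 54.9%, 21.0% and 8.20% in the same classes. Over all of them the share was 10.9%, which put the members 33.8 points higher, but within 10 equal classes of wild-type DMC1 value the difference was 5.76 points (1.86 to 9.66). Within 10 classes the members therefore lay close to hotspots that had no MEI4 peak in any of the 3 lists, and far from hotspots with MEI4 in Hormad1KO.

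**Figure D2:**
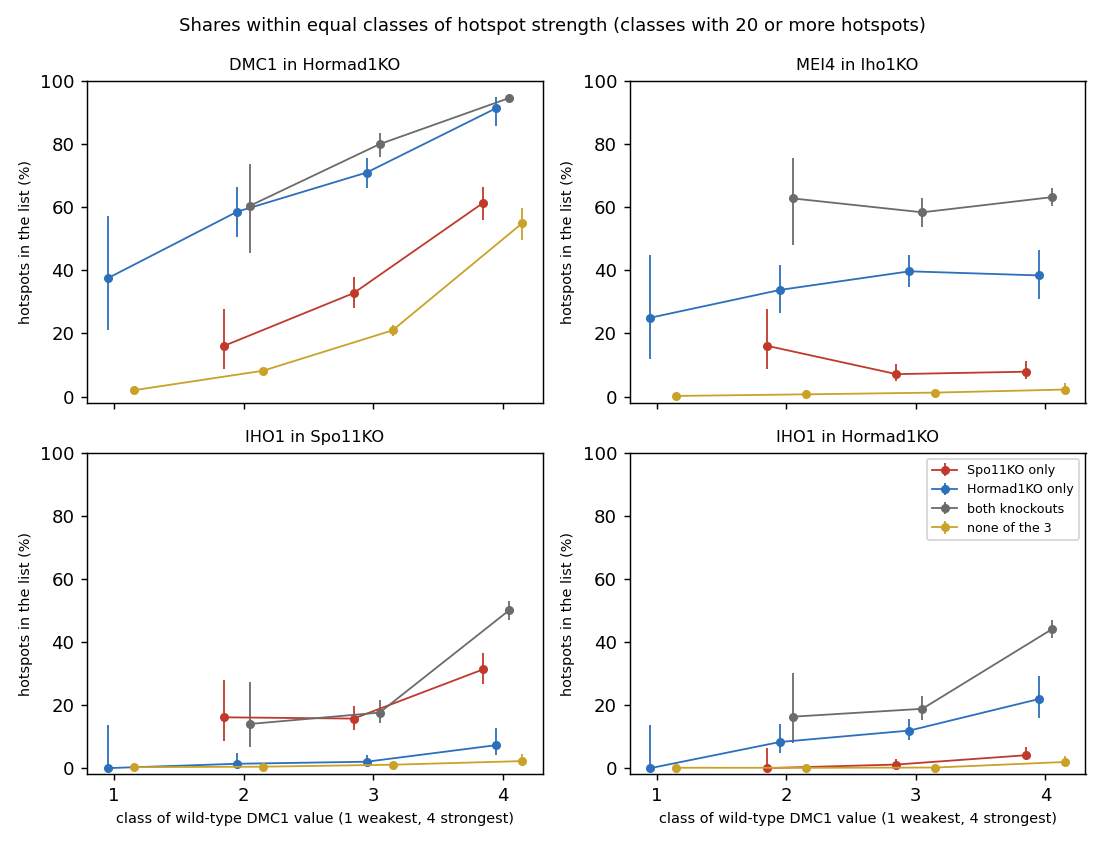
Share of hotspots in each of 4 lists that the rule did not use, by class of wild-type DMC1 value and by the MEI4 lists at the hotspot; bars are Wilson 95% intervals, and classes with fewer than 20 hotspots are left out. For DMC1 in Hormad1KO members lie above the hotspots with no MEI4 peak. The shares are 61.4% against 54.9% in the strongest class, 32.8% against 21.0% in the next and 16.1% against 8.20% in the third. For IHO1 in Spo11KO members lie well above them in the strongest class (31.3% against 2.23%).

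The members that were in the Hormad1KO DMC1 list ranked low there. At the 336 shared members the Hormad1KO DMC1 value had a median of 37.5 (interquartile range 27.9 to 60.8, extremes 12.5 and 5044.5). It was 56.0 at Hormad1KO-only hotspots and 91.5 at hotspots with MEI4 in both knockouts. Values of the 2 lists are not on a common scale, so ranks were taken among the 4548 autosomal hotspots that both lists share. Members had a median percentile of 44.5 in the wild type and 25.5 in Hormad1KO, a median change of -16.6 (interquartile range -31.3 to -0.170). Hormad1KO-only hotspots moved the other way, from 23.3 to 39.7, with a median change of 12.1. A lower rank in Hormad1KO was seen at 253 of 336 members (75.3%), and at 2303 of all 4548 shared hotspots (50.6%). The share was 29.4% of Hormad1KO-only hotspots (difference 45.9 points, 39.5 to 51.8) and 48.5% of hotspots with MEI4 in both knockouts (26.8 points, 21.3 to 31.9).

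Among hotspots of like strength, a fall in rank was also seen where no MEI4 peak had been listed. In the strongest class 87.6% of members ranked lower, against 55.8% and 58.3% in the 2 comparison sets and 61.7% of all shared hotspots. Among hotspots with MEI4 in none of the 3 lists, however, 82.7% did, a difference of 4.88 points (-2.05 to 11.9). Within 10 classes of wild-type DMC1 value the difference from those hotspots was 2.54 points (-3.32 to 8.40), which was not called. The 416 members absent from the Hormad1KO list were weaker in the wild type (median 306) than the 336 present (median 550).

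**Figure D3:**
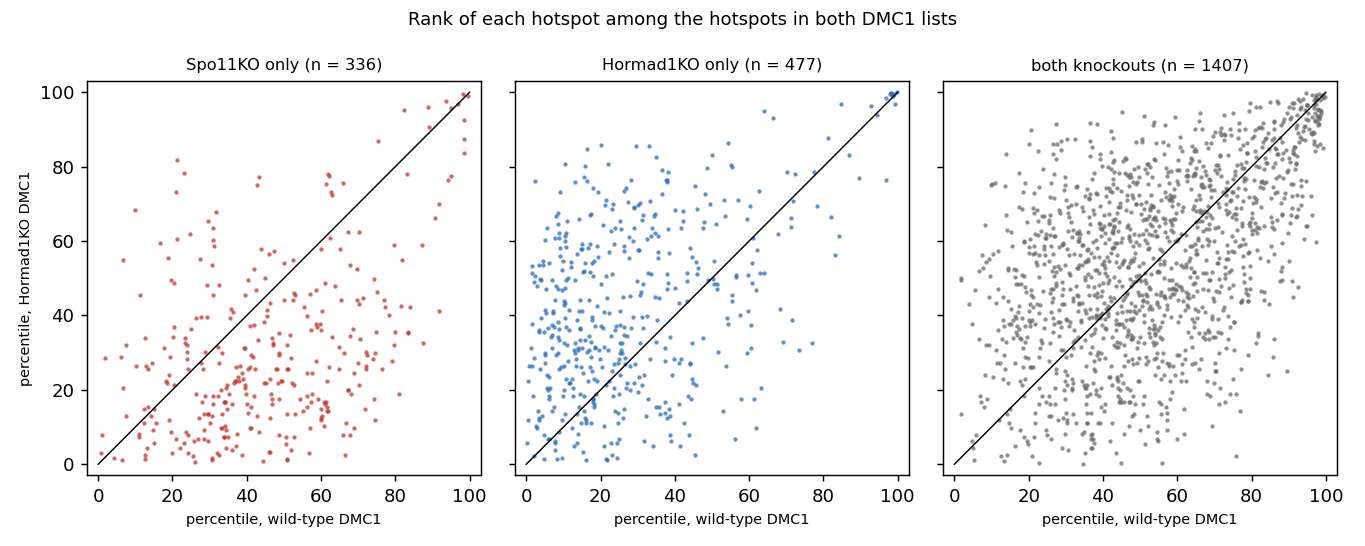
Percentile of each hotspot among the 4548 autosomal hotspots in both DMC1 lists, wild type on the x axis and Hormad1KO on the y axis, with the line of equal rank. Most Spo11KO-only hotspots (253 of 336) lie below the line, and most Hormad1KO-only hotspots lie above it.

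Single members showed the whole range. The strongest member, chr1:58419201-58421408 in Clk1 (a kinase of splicing factors), had a DMC1 value of 11343.5 in the wild type and 3316.5 in Hormad1KO. The hotspot chr2:126925760-126928018 in Sppl2a (an intramembrane protease) had 7462 and 5044.5, the highest Hormad1KO value of any member. The third highest in Hormad1KO, chr8:46473980-46476101 in Acsl1 (a long-chain acyl-CoA synthetase), had 3702 and 1709. Other strong members had far lower Hormad1KO values: chr10:111544639-111546962, outside coding genes, had 8109 and 318.5, chr9:115098862-115101277 in Osbpl10 (a lipid-binding protein of the oxysterol-binding family) had 8019 and 424.5, and chr3:45772392-45774531, outside coding genes, had 7888 and 717.5. The strongest members missing from the Hormad1KO list were chr3:83932205-83934812 in Tmem131l (2305.5), chr16:85785690-85787321 (1626.5) and chr3:149179833-149181410 (1481.5). At the other end, chr2:157332006-157333695 in Ghrh (growth hormone-releasing hormone) had 37.5 and was not found in Hormad1KO, and chr13:95433345-95435560 in Crhbp (a binding protein of corticotropin-releasing hormone) had 40.5 and 17.0.

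MEI4 without IHO1, a list the rule did not use, seldom marked the members. It overlapped 62 of 752 (8.24%, 6.48 to 10.4), below its 19% of all autosomal hotspots. It overlapped 37.6% of Hormad1KO-only hotspots (difference -29.3 points, -33.5 to -25.1) and 61.8% of hotspots with MEI4 in both knockouts (-53.6 points, -56.5 to -50.3). Both differences had the same sign on 19 of 19 autosomes, and the first was -18.8 points within 10 Mb windows. By strength, the share of members was 7.89% in the strongest class, 7.12% in the next and 16.1% in the third. All autosomal hotspots had 57.7%, 14.6% and 3.37%, so in the third class the members lay above that share. Against hotspots with none of the 3 lists the members were 6.28 points higher within DMC1 classes (4.21 to 8.36). The 62 members with MEI4 in Iho1KO were mostly those with breaks in Hormad1KO: 57 of 62 (91.9%) were in the Hormad1KO DMC1 list, against 40.4% of the other 690, with wild-type medians of 371.25 and 386.75.

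IHO1 marked the members more often in Spo11KO than in Hormad1KO. The IHO1 list of Spo11KO overlapped 172 members (22.9%, 20 to 26.0), where it overlapped 14.6% of all autosomal hotspots. This excess depended on strength: in the strongest DMC1 class the list overlapped 31.3% of members against 51.2% of all autosomal hotspots. In the next class it overlapped 15.7% against 5.65%, and in the third 16.1% against 1.08%. Over all classes it overlapped 3.01% of Hormad1KO-only hotspots, a difference of 19.9 points (16.6 to 23.2) with the members higher on 19 of 19 autosomes. Hotspots with MEI4 in both knockouts had 40.2%, a difference of -17.3 points (-21.1 to -13.3) with the members lower on 18 of 19 autosomes. Within DMC1 classes that difference was -8.41 points (-12.3 to -4.52). The IHO1 list of Hormad1KO overlapped 19 members (2.53%), where it overlapped 12.7% of all autosomal hotspots. This was lower than in Hormad1KO-only hotspots (12.9%; -10.4 points, -13.3 to -7.69; lower on 16 autosomes, higher on 2 and equal on 1) and in those with MEI4 in both knockouts (36.3%; -33.8 points, -36.4 to -31.1). The first of these was -6.72 points within 10 Mb windows (-10.7 to -2.76).

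Members and Hormad1KO-only hotspots in just 1 of these 2 IHO1 lists were mostly in that of the genotype with the MEI4 peak. Among the 173 members in just 1 of these IHO1 lists, 163 (94.2%, 89.7 to 96.8) were in that of Spo11KO, 10 in that of Hormad1KO, and a further 9 were in both. Among Hormad1KO-only hotspots the share was 9.76% (8 of 82), and among those with MEI4 in both knockouts 56.4% (264 of 468). A majority of members, 570, were in neither IHO1 list. Against hotspots with MEI4 in none of the 3 lists, within DMC1 classes, the members were 19.5 points higher for IHO1 in Spo11KO (16.4 to 22.5) and 1.01 points higher for IHO1 in Hormad1KO (-0.0636 to 2.09), which was not called. The MEI4 and IHO1 lists of a genotype come from the same mouse line, and the part of that in these shares was not tested.

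Members with IHO1 in Spo11KO were stronger than those without (wild-type DMC1 medians 545.5 and 355.5). They were also nearer to the chromosome end away from the centromere (medians 21.3 and 45.3 Mb). Their shares in the Hormad1KO DMC1 list were 47.7% (40.3 to 55.1) and 43.8% (39.8 to 47.9), with overlapping intervals. The 19 members with IHO1 in Hormad1KO were all in that DMC1 list (19 of 19).

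**Figure D4:**
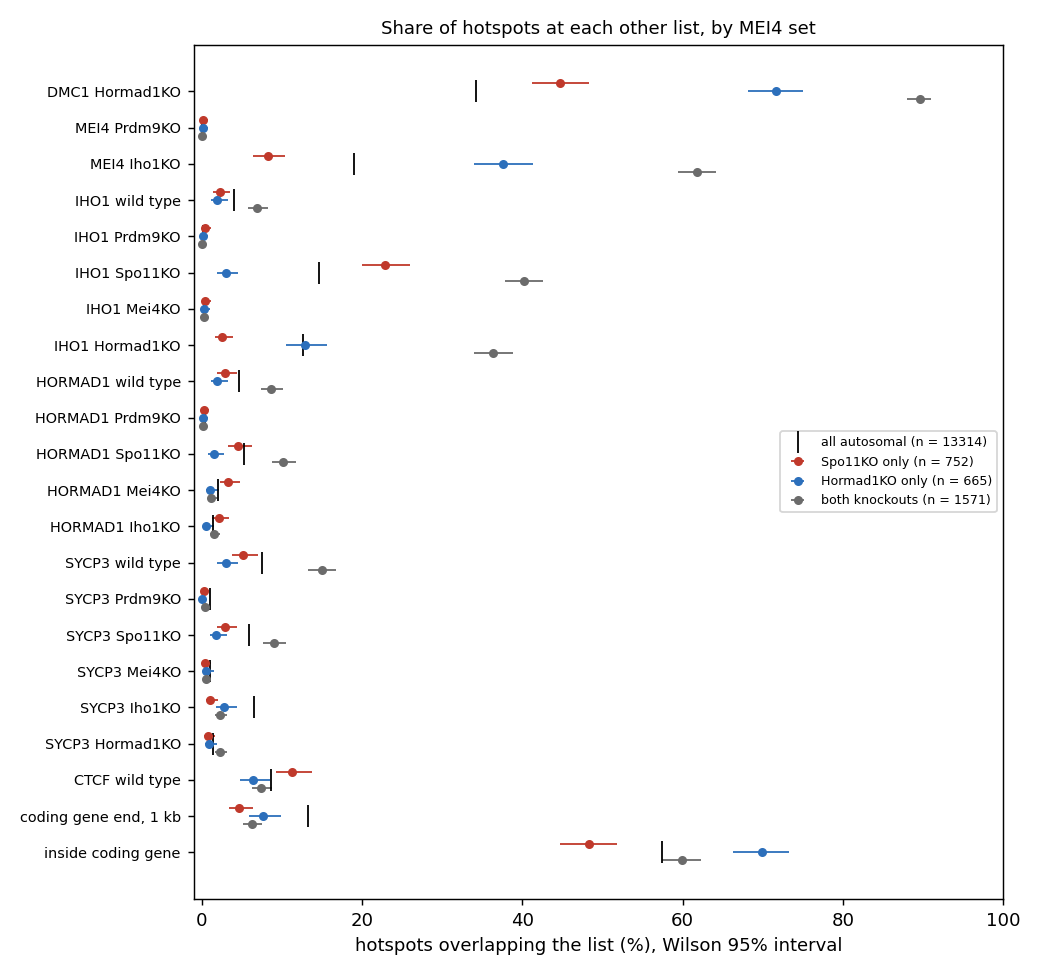
Share of each set of hotspots that overlapped each list or gene feature that the rule did not use, with Wilson 95% intervals; black ticks give the share over all autosomal hotspots. Members stand above Hormad1KO-only hotspots for IHO1 in Spo11KO (22.9% against 3.01%) and below both other sets for DMC1 in Hormad1KO and MEI4 in Iho1KO.

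The axis proteins were listed at few members in every genotype. HORMAD1 overlapped 2.93% of members in the wild type (4.66% of all autosomal hotspots), 4.52% in Spo11KO (5.30%), 3.32% in Mei4KO (2.04%), 2.13% in Iho1KO (1.43%) and 0.266% in Prdm9KO (0.391%). The Spo11KO shares depended on strength: in the strongest DMC1 class they were 6.43% of members against 18.5% of all autosomal hotspots. In the next class they were 2.56% against 1.08%, and in the third 5.36% against 0.811%. Relative to Hormad1KO-only hotspots the members were higher for HORMAD1 in Spo11KO by 3.02 points (1.24 to 4.88), in Mei4KO by 2.27 (0.739 to 3.90) and in Iho1KO by 1.53 (0.287 to 2.88). The last of these differences was lost at stronger hotspots (0.982), and both it and that of Mei4KO were lost without hotspots at CTCF peaks or gene ends (0.902 and 1.20) and with intervals adjusted for the 22 lists and features compared. Relative to hotspots with MEI4 in both knockouts the members were lower for HORMAD1 in Spo11KO (-5.73 points) and in the wild type (-5.80), and both differences were lost within DMC1 classes (-1.41 and -0.861). They were higher for HORMAD1 in Mei4KO, by 2.12 points (3.32% against 1.21%, 0.858 to 3.71), the 1 protein list of the 18 with a called excess in that comparison. Without hotspots at CTCF peaks or gene ends this excess was 1.06 points, and the members' share was 1.72% in Mei4KO and 1.25% in Iho1KO. The wild-type HORMAD1 share was 1.60% where 50% of the shorter interval had to overlap.

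SYCP3 overlapped 5.19% of members in the wild type (7.56% of all autosomal hotspots), 2.93% in Spo11KO (5.95%), 1.06% in Iho1KO (6.56%), 0.798% in Hormad1KO (1.46%), 0.399% in Mei4KO (1.11%) and 0.266% in Prdm9KO (1.10%). Each of these was below the share over all autosomal hotspots. For the wild type this held in the strongest DMC1 class (9.94% against 29.0%). It did not hold in the next (1.14% against 0.421%) or the third (1.79% against 0.481%), where 4 and 1 members had SYCP3. The wild-type share was 3.06% where 50% of the shorter interval had to overlap. The excess in the wild type over Hormad1KO-only hotspots, 2.18 points (0.0786 to 4.29), became -0.125 within DMC1 classes, and the deficit against hotspots with MEI4 in both knockouts, -9.77 points, was lost there (-1.69). The deficit of SYCP3 in Spo11KO against hotspots with MEI4 in both knockouts was -6.11 points (-7.92 to -4.14). The 39 members with wild-type SYCP3 were strong (median DMC1 1371 against 379 for the rest), and 33 of them (84.6%) were in the Hormad1KO DMC1 list. Of the 39, 34 fell in the strongest DMC1 class, where 87.0% of all autosomal hotspots were in that list.

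IHO1 in the wild type overlapped 17 members (2.26%, against 4.08% of all autosomal hotspots). That share was 1.20% where 50% of the shorter interval had to overlap and 1.33% in a 1 kb window at the hotspot centre. At 1 bp it was near the 1.95% of Hormad1KO-only hotspots, and differed by -4.68 points from hotspots with MEI4 in both knockouts, a difference lost within DMC1 classes (-0.898). Without PRDM9, MEI4 overlapped 0.133% of members (0.0601% of all autosomal hotspots) and IHO1 0.399% (0.150%), and IHO1 in Mei4KO overlapped 0.399% (0.293%). Differences for these last 3 lists were not called.

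Members lay in no further protein list about as often as autosomal hotspots at large, when strength was not taken into account. Of 752, 510 (67.8%, 64.4 to 71.1) lay in none of the 18 protein lists that the rule did not use, 161 in 1, 33 in 2 and the rest in 3 to 11. The share in none was 68.7% over all autosomal hotspots, whose median DMC1 value was 128.0 against 386.25 in members. It was 87.9% in hotspots with MEI4 in none of the 3 lists, and 55.5% in Hormad1KO-only hotspots. Of hotspots with MEI4 in both knockouts, 393 of 1571 lay in none (Wilson interval 22.9 to 27.2%). Of the lists of Spo11KO itself, 186 members (24.7%) were in at least 1 of IHO1, HORMAD1 and SYCP3, and 7 (0.931%) in all 3, against 17.5% and 2.20% of all autosomal hotspots. The member in most lists, 11, was chr19:53375125-53377206, outside coding genes, with a wild-type DMC1 value of 479.5 and none in Hormad1KO. The Sppl2a hotspot followed with 10. The Acsl1 hotspot, chr3:142784286-142786055 beside Gtf2b (the general transcription factor TFIIB) and chr1:152277989-152280064 were in 8 each, as was the Fyco1 hotspot. Of the 22 lists and features compared, 12 differences from Hormad1KO-only hotspots were called (6 higher and 6 lower) and 14 from hotspots with MEI4 in both knockouts (2 higher and 12 lower).

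Spo11KO-only hotspots gathered towards the chromosome end away from the centromere, but not at that very end. Mouse autosomes are acrocentric, so each has its centromere at the start and 1 long arm. The distance to the distal end (the last feature of the lists and the gene table on that chromosome) had a median of 38.3 Mb in members, against 60.5 Mb in Hormad1KO-only hotspots, 56.6 Mb in hotspots with MEI4 in both knockouts and 61.2 Mb in all autosomal hotspots. Between 5 and 20 Mb from the end lay 239 members (31.8%), against 6.47% of Hormad1KO-only hotspots (difference 25.3 points, 21.4 to 29.1), 10.8% of those with MEI4 in both knockouts (21.0 points, 17.4 to 24.7) and 14.2% of all. In the last 5 Mb the order against Hormad1KO-only hotspots was turned around: 7 members (0.931%) lay there, against 98 Hormad1KO-only hotspots (14.7%; -13.8 points, -16.7 to -11.1). Hotspots with MEI4 in both knockouts were also scarce there (1.40%; difference -0.470 points, -1.33 to 0.617, not called). The share over all autosomal hotspots was 3.77%. The distance classes were chosen after the positions had been seen. The share within 20 Mb of the end was higher in members on 14 of 19 autosomes against Hormad1KO-only hotspots and on 16 of 19 against those with MEI4 in both knockouts.

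**Figure D5:**
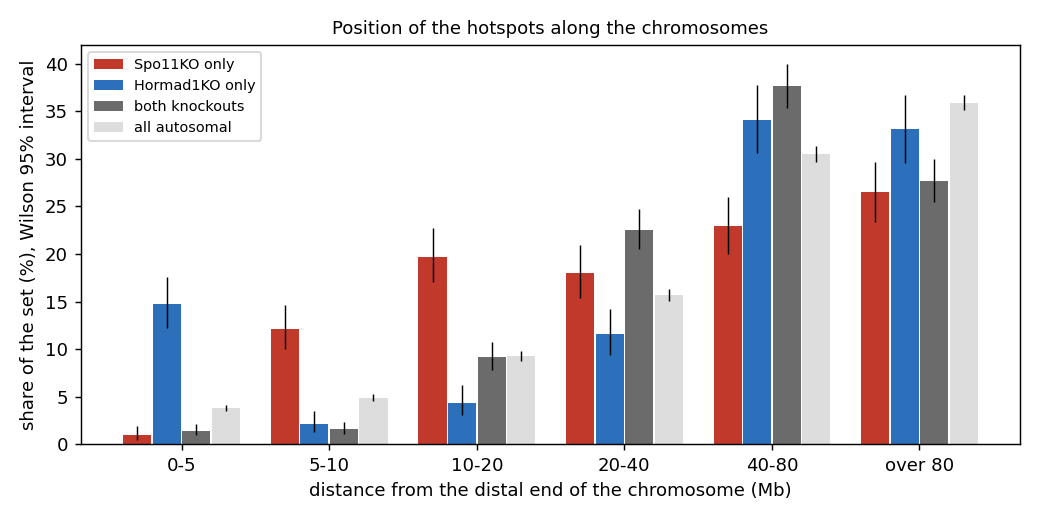
Share of each set of hotspots by distance from the distal chromosome end, with Wilson 95% intervals. Between 5 and 20 Mb Spo11KO-only hotspots exceed the other sets (31.8% against 6.47%, 10.8% and 14.2%). In the last 5 Mb Hormad1KO-only hotspots exceed the Spo11KO-only, both-knockout and all autosomal hotspots (14.7% against 0.931%, 1.40% and 3.77%).

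Members near the distal end were less often in the Hormad1KO DMC1 list than those farther in. Within 20 Mb of the end 71 of 246 members (28.9%, 23.6 to 34.8) were in the Hormad1KO DMC1 list, against 265 of 506 farther in (52.4%, 48.0 to 56.7), while the wild-type medians were 356.75 and 398.5. Among the members farther in, MEI4 in Iho1KO overlapped 10.9% and IHO1 in Spo11KO 17.6%. In this inner part the differences from the 2 comparison sets in the Hormad1KO DMC1 list were -18.6 points (-24.3 to -12.7) and -38.5 points (-43.1 to -33.9).

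Members also lay beside each other. For each member, the nearest other hotspot out of the 2 one-knockout sets was again a member in 576 of 752 cases (76.6%), where members made up 53.1% of these sets. The share was 85.7% for neighbours under 100 kb apart, 77.2% from 100 kb to 1 Mb, and 69.1% beyond 1 Mb. Hormad1KO-only hotspots lay beside their own kind as well. Their nearest neighbour was again Hormad1KO-only in 477 of 665 cases, and in 97 of 114 under 100 kb. Runs of members uninterrupted by a Hormad1KO-only hotspot reached 10 or more members 16 times and held 274 members. Runs of Hormad1KO-only hotspots uninterrupted by a member did so 9 times and held 121, the longest with 21. The longest run of members, 29 over 24.7 Mb at chr10:7596450-32254759, lay far from the distal end. It held 191 hotspots in all, of which 3 had MEI4 in both knockouts and 152 in none of the 3 lists. The next were 28 members at chr8:100778977-124242772, 25 at chr16:60029917-92806888, 22 at chr3:117521568-153228953 and 19 at chr1:180238026-190898067, which came to between 4.45 and 6.71 Mb of the distal end. In the chr10 run 9 of 29 members were in the Hormad1KO DMC1 list and 7 had IHO1 in Spo11KO. By chromosome, members were 9.02% of hotspots on chromosome 19 (34 of 377, 6.53 to 12.3) and 8.24% on chromosome 10 (64 of 777), and 3.08% on chromosome 4 (24 of 778, 2.08 to 4.55).

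Members lay outside genes more often than the comparison sets. Of 752, 363 (48.3%) overlapped a protein-coding gene, against 57.4% of all autosomal hotspots, 69.9% of Hormad1KO-only hotspots (-21.7 points, -26.5 to -16.6; lower on 18 of 19 autosomes) and 59.9% of those with MEI4 in both knockouts (-11.6 points, -15.9 to -7.30; lower on 17 of 19). In the Hormad1KO DMC1 list were 44.6% (39.6 to 49.8) of members in genes and 44.7% (39.9 to 49.7) of those outside. The 363 members touched 329 genes. Osbpl10 held 5 members, Cdh13 (T-cadherin) held 4, and Btbd11, Nav3 and Robo2 (a receptor of axon guidance) held 3 each, genes singled out after their counts were seen. A gene end within 1 kb was found at 4.65% of members, against 13.3% of all autosomal hotspots and 7.67% of Hormad1KO-only hotspots (-3.01 points, -5.63 to -0.513), a difference lost within DMC1 classes (-1.38). The members' share was 2.66% where 50% of the shorter interval had to overlap.

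CTCF, an architectural protein that bounds chromatin loops, overlapped 85 members (11.3%), where it overlapped 8.61% of all autosomal hotspots. Hormad1KO-only hotspots had 6.47% (difference 4.84 points, 1.87 to 7.79) and those with MEI4 in both knockouts 7.45% (3.86 points, 1.35 to 6.59). The second difference was lost within DMC1 classes (2.44), and both were lost among hotspots more than 20 Mb from the distal end (3.20 and 2.58). Members with a CTCF peak had a wild-type DMC1 median of 326.5 against 402 for those without, and 36.5% (27.0 to 47.1) against 45.7% (42.0 to 49.5) were in the Hormad1KO DMC1 list.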

How the data were processed

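Each peak list was deposited by the authors as intervals with no strength for MEI4, IHO1, HORMAD1 and SYCP3. Per the labels, DMC1 came from a variant that enriches single-stranded DNA. The deposited DMC1 lists carry the authors' signal value per hotspot, in a unit not named and always a multiple of 0.5, which was used only to describe and rank hotspots within a list. Bowtie2, MACS2 and the build mm10 are named in the submitters' processing notes, and the peak thresholds and any pooling of replicates are not given in the sources used here. The authors subtracted each protein's own-knockout signal, as the series' design text states. The CTCF score and the 12 groups without an analysed list were not used here.

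Lists were joined by an overlap of 1 bp with Python 3.11.15, numpy 2.4.6, pandas 2.3.3 and scipy 1.17.1, and the functions were tested on simulated data. Shares have Wilson 95% intervals and differences Newcombe intervals. Differences within classes are Mantel-Haenszel differences. Genes are the 21627 protein-coding genes of the RefSeq table (GRCm38.p6, the same assembly as mm10). The members, lists and comparison sets were chosen with earlier results of these data known. Sites are named by rank: the highest and lowest DMC1 values, the most lists, and the edges of the rule. Intervals cover counting error only.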

Additional observations from a re-analysis of the deposited data

How the results depend on the processing

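No paired analysis was possible because there was 1 list per group and the lists carry no replicate numbers, and for the same reason no replicate could be left out. The 8 main differences (DMC1 in Hormad1KO, MEI4 in Iho1KO, and IHO1 in Spo11KO and in Hormad1KO, each against both comparison sets) kept their direction and their call under all 12 alternatives, and without each of the 19 autosomes in turn. The alternatives changed the overlap, the hotspot window, the gap to excluded MEI4 peaks, the chromosomes, the hotspots kept, the classes compared within and the interval level. Those chosen after seeing the data were the 10 Mb windows, the hotspots more than 20 Mb from the distal end, each autosome left out, and the hotspots with none of the 3 MEI4 lists.

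Among hotspots more than 20 Mb from the distal end, the members' share was 52.4% in the Hormad1KO DMC1 list, 10.9% at MEI4 of Iho1KO and 17.6% at IHO1 of Spo11KO. With hotspots above the autosomal median alone, the members' median DMC1 value was 422, since weaker members are left out by construction. For wild-type SYCP3, the difference from Hormad1KO-only hotspots turned to -0.125 within DMC1 classes, and the cause was not tested. Of the remaining differences under an alternative, 378 kept their status as called or not called, 43 lost the call and 6 gained it. Among the 378, some that were not called changed sign. MEI4 in Prdm9KO against Hormad1KO-only hotspots, for example, went from -0.0174 points to 0.138 within DMC1 classes. Depth and peak height are unknown, so an absent peak is no measure of absent protein.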
